A study of Mus musculus with 12 samples.

Results

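The serpin superfamily was described in the liver of germ-free mice given growth hormone. Its members were all rows of the count table whose symbol is Serpin with a clade letter from a to i and a number, without pseudogenes marked -ps. The rule took 63 of 38087 rows, under 62 symbols, since Serpina11 stands on 2 rows. Of these, 34 rows had a mean of at least 10 counts over the libraries and form the set described here. The other 29 lay under that mean, and 9 of them were at 0 in every library. A filter on low counts, applied over all genes, left 32 serpin rows for testing. Serpina5 and Serpina3c passed that filter only through the growth hormone group.

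Serpins are mostly protease inhibitors that act once: the protease cuts an exposed reactive centre loop and is trapped in a covalent complex. The liver secretes many of them into plasma, where they restrain coagulation, fibrinolysis, complement and neutrophil proteases. Some have lost inhibition and carry hormones (Serpina6 and Serpina7) or assist collagen folding (Serpinh1). In hepatocytes, the growth hormone receptor signals through JAK2 and STAT5, and the pattern of the hormone in blood sets many sex-biased liver genes in rodents.

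All mice were male C57BL/6j, germ-free and 13 to 16 weeks old. The GH group (n = 6) received 50 µg of recombinant human growth hormone per mouse under the skin, with 2 injections daily (ZT 2 and ZT 14) for 5 days, and the control group (n = 6) received PBS by the same schedule. ZT is zeitgeber time, counted in hours from lights on, and all livers were taken at ZT 2. The labels do not say whether any libraries share a litter, cage or day, so each p-value speaks only for the spread among these 12 libraries, which may be partly technical. The 12 total-RNA libraries held 19523104 to 23278931 counts each. Hepatocyte markers were abundant in all of them: the summed level of 8 markers was 108436 ± 7204 CPM in PBS against 94948 ± 8488 in GH (mean ± SD, n = 6 each; CPM is the count scaled to library size), and none was called changed. In whole liver, fewer cells of a type and less RNA per cell cannot be told apart.

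Many serpins are near copies of each other. The 72 coding bases that start at the conserved hinge of the reactive centre loop are shown for the abundant Serpina1 and Serpina3 copies, because this loop meets the protease and reads over its differing bases can be assigned to 1 copy. They were read from GENCODE M21 transcripts (GRCm38), 5′ to 3′. Capitals mark bases that differ, position by position without gaps, from the first sequence of each set.
Serpina3k (coding bases 1105 to 1176): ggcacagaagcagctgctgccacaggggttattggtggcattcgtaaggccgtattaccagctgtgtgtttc
Serpina3m (coding bases 1099 to 1170): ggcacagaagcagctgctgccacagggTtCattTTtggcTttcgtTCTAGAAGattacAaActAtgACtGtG
Serpina3c (coding bases 1099 to 1170): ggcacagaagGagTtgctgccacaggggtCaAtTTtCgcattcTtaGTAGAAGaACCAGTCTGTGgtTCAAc
Serpina3n (coding bases 1099 to 1170): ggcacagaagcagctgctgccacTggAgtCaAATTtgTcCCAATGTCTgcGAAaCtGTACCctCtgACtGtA
Serpina1a (coding bases 1156 to 1227): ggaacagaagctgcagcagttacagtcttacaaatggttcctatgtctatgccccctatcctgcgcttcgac
Serpina1b (coding bases 1087 to 1158): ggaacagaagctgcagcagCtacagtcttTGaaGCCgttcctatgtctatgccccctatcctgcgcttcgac
Serpina1c (coding bases 1087 to 1158): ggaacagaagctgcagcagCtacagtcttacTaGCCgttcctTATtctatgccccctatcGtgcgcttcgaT
Serpina1d (coding bases 1087 to 1158): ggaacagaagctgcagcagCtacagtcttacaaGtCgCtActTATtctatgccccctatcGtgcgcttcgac
Serpina1e (coding bases 1087 to 1158): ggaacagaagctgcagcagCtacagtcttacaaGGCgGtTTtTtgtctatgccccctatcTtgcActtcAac
In this stretch Serpina3m differed from Serpina3k at 20 bases, Serpina3c at 30 and Serpina3n at 31. Among the Serpina1 copies the stretch differed from Serpina1a at 6 bases (Serpina1b) to 11 bases (Serpina1e). Identity over the whole coding sequence was counted as matching bases over the longer sequence of a pair. Pairs among Serpina1b to Serpina1e were 96.3% to 96.9% identical. Pairs with Serpina1a gave 91.6% to 93.4%, values lowered by its longer coding sequence, 1308 bases against 1239 in the others. Serpina3k and Serpina3m, of equal length, were 91.7% identical. Of all 125-base windows, the length of a read, the share found unchanged in another gene was 53.1% for Serpina1c, 43.9% for Serpina1a, 25.1% for Serpina1d, 18.8% for Serpina1b and 10.9% for Serpina1e. For Serpina3k it was 2.33% and for Serpina3m 2.93%, and for Serpina3c, Serpina3n, Serpina5, Serpina6 and Serpina7 it was 0. The Serpina1 values are therefore uncertain as single copies.

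Growth hormone changed 7 of the 32 tested serpins, 5 upward and 2 downward. Serpina5, Serpina3c, Serpina3k, Serpina3m and Serping1 rose, and the hormone carriers Serpina7 and Serpina6 fell. Changes were called at a Benjamini-Hochberg adjusted p under 0.05 in edgeR's quasi-likelihood test over all 14235 genes tested. The share of serpins called was 21.9%, where 4.79% of all genes tested were called (2.27% higher and 2.52% lower). The groups did not overlap for 7 serpins (21.9%) and for 3.18% of all genes. Both counts of 7 include Serpina5 and Serpina3c, which passed the filter only through the GH group. Both also include Serpina3k and Serpina3m, whose rows are not independent (below). The unadjusted p was under 0.05 for 15 serpins (46.9%) and for 19% of all genes. The log2 fold change was positive for 22 serpins and negative for 10, with a median of 0.12 beside 0.00 over all genes, and its median size was 0.23 beside 0.13. The family was chosen with earlier results of these data known, so these counts describe it and are no test of it.

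**Figure D1:**
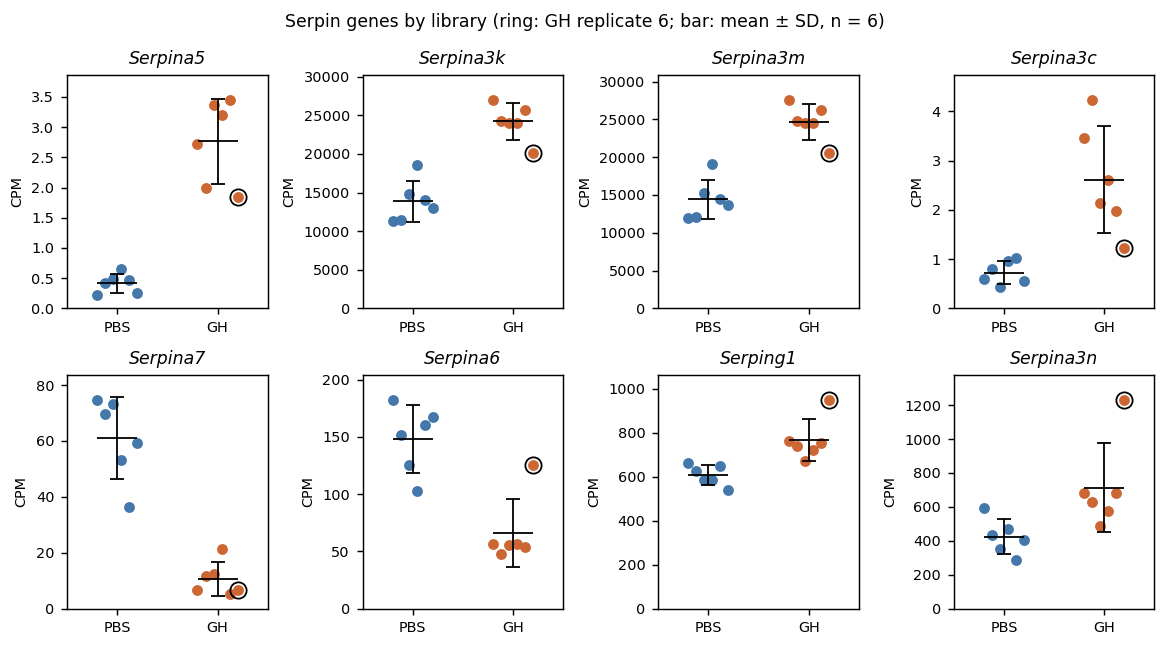
Level in CPM (linear axes from 0) of the 7 serpins called changed and of Serpina3n, 1 point per library, with the mean and SD as bars and GH 6 ringed. Serpina5, Serpina3c, Serpina3k, Serpina3m and Serping1 lie higher in all 6 GH libraries than in any PBS library, Serpina7 lies lower in all 6, and Serpina6 overlaps through GH 6 at 126 CPM.

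Both serpins that fell are hormone carriers. Serpina7, thyroxine-binding globulin, is on chromosome X (chrX:139079257-139085236, GRCm38, minus strand), apart from the other clade A members. Its lowest, median and highest levels were 36.4, 64.5 and 74.7 CPM in PBS, and 5.25, 9.20 and 21.3 in GH. Every GH library lay below every PBS library. The mean went from 61.1 ± 14.7 to 10.6 ± 5.98 CPM (SD, n = 6 each), a fall of 5.73-fold (log2 fold change -2.52 ± 0.35 SE, edgeR adjusted p = 0.00248).

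Serpina6, corticosteroid-binding globulin, which carries glucocorticoids in plasma, lies at chr12:103646630-103657212 (minus strand). It ran from 102 through a median of 156 to 182 CPM in PBS, and from 47.6 through 55.8 to 126 in GH. Of the GH libraries, 5 lay between 47.6 and 56.8 CPM, below all PBS libraries, and GH 6, at 126, lay among them. Its mean fell from 148 ± 29.4 to 66.0 ± 29.4 CPM (SD, n = 6 each; log2 fold change -1.17 ± 0.25 SE, edgeR adjusted p = 0.0203). Without GH 6 the log2 fold change was -1.46 (adjusted p = 1.83e-05). The call was lost without GH 1 (adjusted p = 0.0515) and without GH 3 (adjusted p = 0.0501).

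Serpina5 rose most. It encodes the protein C inhibitor, an inhibitor of activated protein C and of several plasminogen activators, and lies at chr12:104101113-104106137 (plus strand). Its levels were 0.216, 0.444 and 0.652 CPM (lowest, median, highest) in PBS and 1.85, 2.96 and 3.45 in GH. These are few reads, from 5 to 73 counts per library, and the groups did not overlap. The mean rose from 0.416 ± 0.160 to 2.76 ± 0.700 CPM (SD, n = 6 each), 6.64-fold (log2 fold change 2.73 ± 0.26 SE, edgeR adjusted p = 1.79e-05). Per kilobase of exon it was the lowest of the 32 tested serpins in PBS, at 0.192 CPM per kb.

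Serpina3c, a clade A3 member at chr12:104146382-104153870 (minus strand), was also scarce. It reached 0.435, 0.702 and 1.02 CPM in PBS and 1.23, 2.37 and 4.24 in GH, with no overlap. The mean rose from 0.728 ± 0.234 to 2.61 ± 1.08 CPM (SD, n = 6 each), 3.56-fold (log2 fold change 1.83 ± 0.30 SE, edgeR adjusted p = 0.00182).

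The rows of Serpina3k and Serpina3m, plasma inhibitors of the Serpina3 group, were the highest serpin rows per kilobase of M21 exon, at 6745 and 8384 CPM per kb in PBS. Reads of 1 locus may be in both rows (below), so the level of each gene alone cannot be given. Serpina3k (chr12:104338486-104346144, plus strand) measured 11337, 13537 and 18514 CPM in PBS and 20077, 24191 and 27044 in GH. All GH libraries were above all PBS libraries, and the mean rose 1.75-fold, from 13874 ± 2653 to 24219 ± 2348 CPM (SD, n = 6 each; log2 fold change 0.80 ± 0.11 SE, edgeR adjusted p = 0.00084). By counts, Serpina3k ranked between 3 and 7 among all genes in the PBS libraries and 3 in each GH library, and its share of counts went from 1.42% to 2.37%. Serpina3m (chr12:104338486-104394257, plus strand) measured 11982, 14040 and 19040 CPM in PBS and 20539, 24660 and 27612 in GH, with a mean of 14411 ± 2622 and 24690 ± 2372 CPM (SD, n = 6 each; log2 fold change 0.78 ± 0.11 SE, edgeR adjusted p = 0.00084).

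The rows for Serpina3k and Serpina3m cannot be counted as independent results. In M21 their loci overlap, although they share only 60 exonic bases, of 2057 and 1719. Their counts were nearly equal in every library. The ratio of Serpina3m to Serpina3k was 1.028 to 1.057 in PBS and 1.017 to 1.023 in GH, so it was slightly lower in every GH library (two-sided exact permutation p = 0.00216, the smallest possible, adjusted 0.00577 over 8 summed measures). Subtracting Serpina3k from Serpina3m left 537 ± 77.0 CPM in PBS and 471 ± 52.1 in GH (SD, n = 6 each), a difference that was not called (two-sided exact permutation test, p = 0.108, adjusted 0.124). No source used here names the annotation behind the counts, so reads of 1 locus may be in both rows, and which of the genes rose cannot be told apart. Averaged to 1 row, the pair still rose (log2 fold change 0.79 ± 0.11 SE, edgeR adjusted p = 0.000897).

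**Figure D2:**
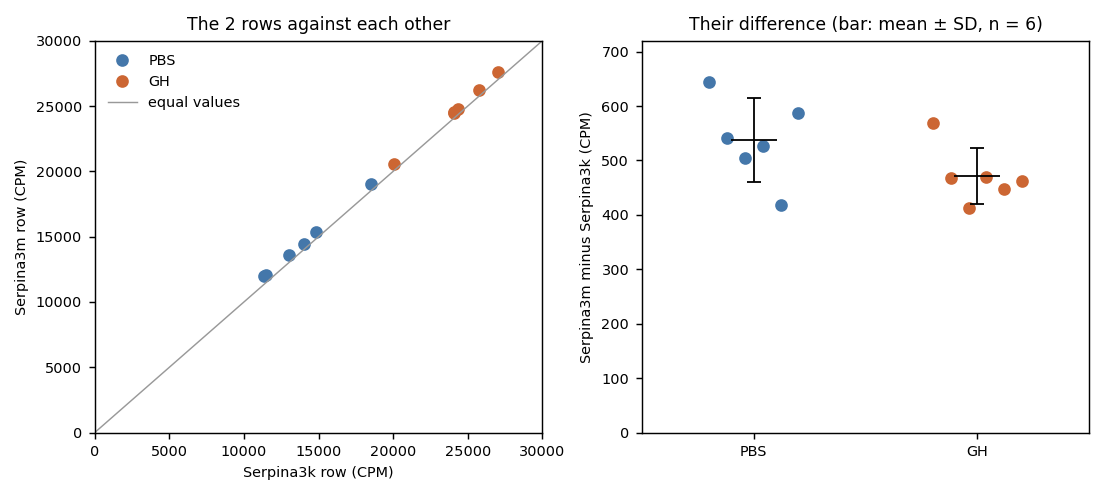
Left, the Serpina3m row against the Serpina3k row in CPM, 1 point per library, with the line of equal values; right, their difference in CPM with mean and SD (n = 6 each). The points follow the line in both groups, and the difference, 412 to 645 CPM, overlaps between groups.

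Among the GH libraries, GH 6 was the lowest for Serpina5, Serpina3c, Serpina3k and Serpina3m, and still above every PBS library.

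Serping1, the C1 inhibitor, which restrains complement and the contact system, lies on chromosome 2 (chr2:84765387-84775444, minus strand). It measured 539, 607 and 662 CPM in PBS and 672, 745 and 949 in GH, so the groups did not overlap, narrowly. The mean rose from 608 ± 46.2 to 766 ± 95.2 CPM (SD, n = 6 each; log2 fold change 0.33 ± 0.09 SE, edgeR adjusted p = 0.0331). The call was lost in 7 of 12 fits that left out 1 library (without PBS 3, PBS 4, PBS 6, GH 1, GH 2, GH 4 or GH 5), with adjusted p up to 0.0822 without PBS 6. It was also lost with library totals as the only scaling (adjusted p = 0.0719).

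Among the Serpina1 copies, which encode forms of alpha-1-antitrypsin, no single copy was called. The copies differ in the loop bases shown above, and which proteases each inhibits was not tested. Serpina1e had the widest spread of the 5 copies: it ran from 2736 through 7483 to 12628 CPM in PBS, a 4.62-fold range, and from 11698 through 12690 to 14114 in GH, a 1.21-fold range. PBS 1 and PBS 6 were lowest. The means were 7679 ± 3850 and 12856 ± 820 CPM (SD, n = 6 each; log2 fold change 0.74 ± 0.31 SE, edgeR adjusted p = 0.227). The other copies had log2 fold changes of 0.06 (Serpina1b) to 0.12 (Serpina1a). Summed, the 5 copies went from 23530 ± 4023 to 29714 ± 1098 CPM (SD, n = 6 each; two-sided exact permutation p = 0.00866, adjusted 0.0173 over the 8 measures). The share of Serpina1e in this sum went from 31.1 ± 11.3% to 43.3 ± 2.35% (exact permutation p = 0.0216, adjusted 0.0346), but as 1 row in edgeR the sum was not called (log2 fold change 0.34 ± 0.10 SE, edgeR adjusted p = 0.0679). The exact tests and the edgeR fit therefore differ in their call on the copies.

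**Figure D3:**
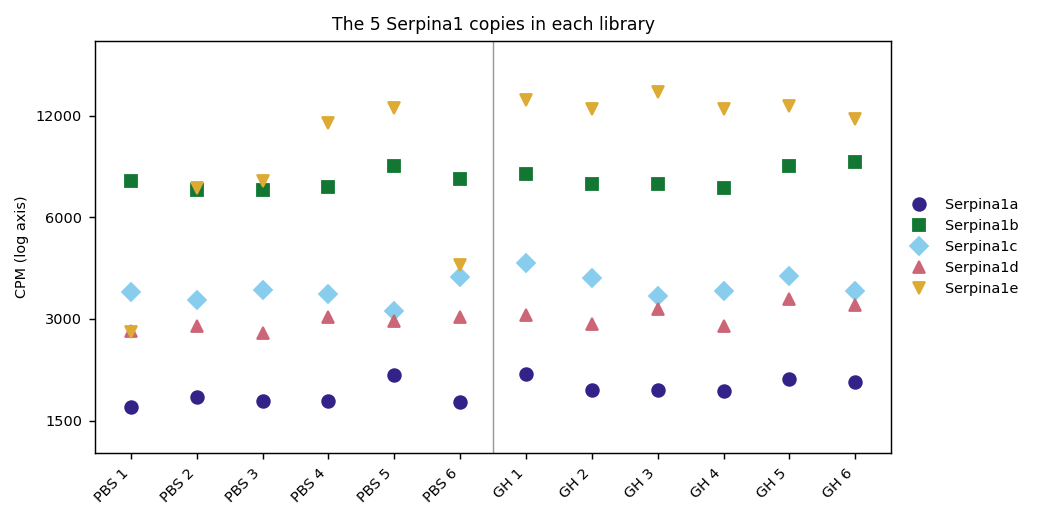
Levels of the 5 Serpina1 copies in CPM (log axis), by library, 6 PBS and 6 GH. Serpina1e spreads over 4.62-fold among the PBS libraries and 1.21-fold among the GH libraries, with PBS 1 and PBS 6 lowest.

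Serpinc1, Serpind1, Serpina10 and Serpinf2, plasma inhibitors of coagulation and fibrinolysis, were not called. Serpinc1, antithrombin, was at 2029 ± 84.6 CPM in PBS and 1902 ± 75.7 in GH (SD, n = 6 each; edgeR adjusted p = 0.458). Serpind1, heparin cofactor II, a thrombin inhibitor, measured 636, 655 and 677 CPM in PBS and 681, 788 and 800 in GH. Its groups did not overlap, yet the rise of 0.22 ± 0.06 SE on the log2 scale missed the threshold in edgeR (adjusted p = 0.0534); the call appeared without PBS 5 (0.0484) and without GH 3 (0.0392). On all 12 libraries it was called by edgeR without robust shrinkage (adjusted p = 0.0497) and by DESeq2 (adjusted p = 0.000635). Serpinf2, alpha-2-antiplasmin, differed by 0.07 on the log2 scale (adjusted p = 0.695), and Serpina10, the protein Z-dependent inhibitor, by 0.25 (adjusted p = 0.167).

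Serpina3n, a Serpina3 member induced in the acute phase, had means of 425 ± 104 and 714 ± 263 CPM (SD, n = 6 each; log2 fold change 0.75 ± 0.23 SE, edgeR adjusted p = 0.0879). GH 6 held 1230 CPM and the next GH library 682. Of 7 acute phase genes looked at, Saa1, Saa2, A2m, Apcs, Orm1 and Hp were higher in all 6 GH libraries than in any PBS library, and Lcn2 overlapped. Over all genes tested, the groups did not overlap, in either direction, for 3.18%. The 7 were chosen with earlier results of these data known, so their count is no test. Saa1 was at 19.3 to 129 CPM in PBS, at 591 to 828 in 5 GH libraries and at 3056 in GH 6. In GH 6, Saa2 was at 3125 CPM against 220 to 339 in the other GH libraries, Lcn2 at 368 against 37.7 to 68.8, and Hp at 5967 against 3220 to 3960. A2m was at 11.5 against 5.16 to 9.06, Orm1 at 1073 against 886 to 1051, and Apcs was the lowest of the group, at 225 against 228 to 357. Their part in the serpin values of GH 6 was not tested. Serpine2, protease nexin-1, an inhibitor of thrombin and plasminogen activators, went the other way in that library, at 11.4 CPM where the other 5 had 39.4 to 53.0. Its means were 17.3 ± 6.27 and 39.5 ± 14.5 CPM (SD, n = 6 each; log2 fold change 1.19 ± 0.35 SE, adjusted p = 0.0897), and without GH 6 it was called (log2 fold change 1.39, adjusted p = 0.00569). It was also called on all libraries without robust shrinkage (adjusted p = 0.0358) and by DESeq2 (0.0165), which called Serpina3n too (0.00697). Serpina12, vaspin, spread over 31.9-fold in PBS, from 2.00 to 63.7 CPM, and from 3.87 to 121 in GH (adjusted p = 0.488). Its lowest values were in PBS 5 and GH 6.

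The remaining members were not called. Serpinf1, pigment epithelium-derived factor, differed by -0.03 on the log2 scale (adjusted p = 0.865), and Serpinh1, the collagen chaperone, by -0.05 (adjusted p = 0.911). None of the 5 tested clade B members, which act inside cells, was called, and their log2 fold changes ran from -1.10 to 0.02, with Serpinb1a lowest (log2 fold change -1.10 ± 0.48 SE, adjusted p = 0.241). Serpina11 and its second row had adjusted p of 0.0764 and 0.113; they overlap, sharing 669 of the second row's 741 exonic bases, and the second row is named Gm28577 in M21. Serpina9 was scarce, at 1.01 ± 0.819 and 0.673 ± 0.374 CPM (SD, n = 6 each; edgeR adjusted p = 0.634). Serpina3g and Serpina3h differed by 0.22 each (adjusted p = 0.613 for both), and their counts kept a ratio of 0.915 to 0.988 in all libraries. Whether reads of 1 locus are in both rows was not tested, so they may not be independent. Serpina3h is a transcribed pseudogene in M21, kept because its symbol lacks -ps. Serpina3i met the mean of 10 counts but not the filter, and fitted without a filter it gave 0.91 on the log2 scale (edgeR adjusted p = 0.290). No member of clade I reached the mean of 10 counts.

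**Figure D4:**
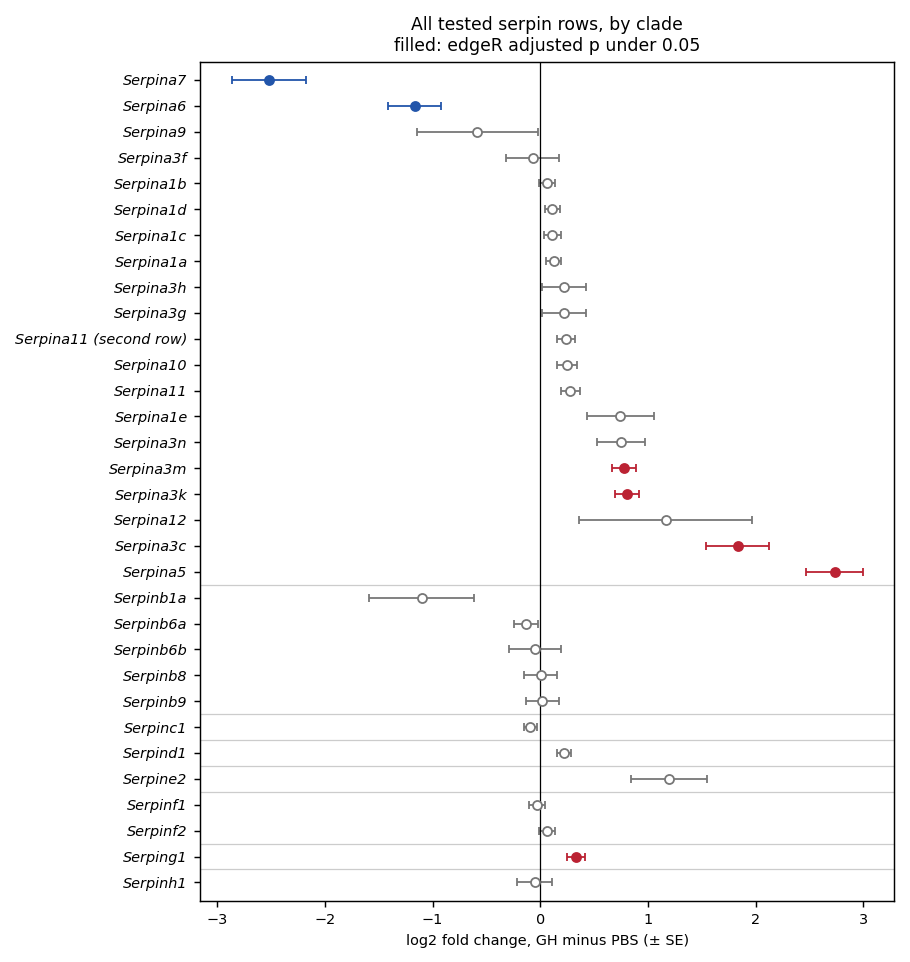
Log2 fold change (GH over PBS) with its SE for the 32 tested serpin rows, by clade, with filled points for called rows (blue lower, red higher). Serpina5 at 2.73 and Serpina7 at -2.52 are at the extremes, and 22 of the 32 estimates are above 0.

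As a sum over the family, serpins took a larger share of the counts after growth hormone. All 63 rows held 5.86 ± 0.850% of each PBS library's counts and 8.29 ± 0.425% of each GH library's (SD, n = 6 each), from 4.88% to 7.16% and from 7.56% to 8.80%, without overlap. The difference of 2.43 percentage points had a two-sided exact permutation p of 0.00216, the smallest that 6 against 6 allows, and an adjusted p of 0.00577 over the 8 measures. Leaving out Serpina3k, which may share reads with Serpina3m, gave 4.44 ± 0.600% and 5.92 ± 0.226% (difference 1.47, exact permutation p = 0.00216). The family was chosen with earlier results of these data known, so these p-values are no test of it. The 8 measures also overlap in part, and the difference of Serpina3m and Serpina3k among them was added after seeing the data. The rise lay mostly in a few rows. Mean shares went from 1.42% to 2.37% for Serpina3k and from 1.47% to 2.41% for Serpina3m. Serpina1e, not called in edgeR, went from 0.783% to 1.26%. The sum therefore does not show a shift of the family as a whole.

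Most described serpins lie in 1 cluster on chromosome 12 (chr12:103614786-104414329), 800 kb long, which held 20 of the 34. Of its 19 tested rows, 5 were called, where 4.79% of all genes were, and 2 of the 5 are the dependent rows of Serpina3k and Serpina3m. Serpina5 and Serpina3c, also among the 5, passed the filter only through the GH group. Serpina6 near its left end fell, and Serpina5, Serpina3c, Serpina3k and Serpina3m in its right part rose. Between Serpina3c and Serpina3k lie Serpina3f, Serpina3g and Serpina3h, which had log2 fold changes of -0.07, 0.22 and 0.22 and were not called, and Serpina3i, which did not pass the filter. Between Serpina6 and Serpina5 lie the 5 Serpina1 copies, both Serpina11 rows, Serpina9 and Serpina12, none of them called in edgeR.

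**Figure D5:**
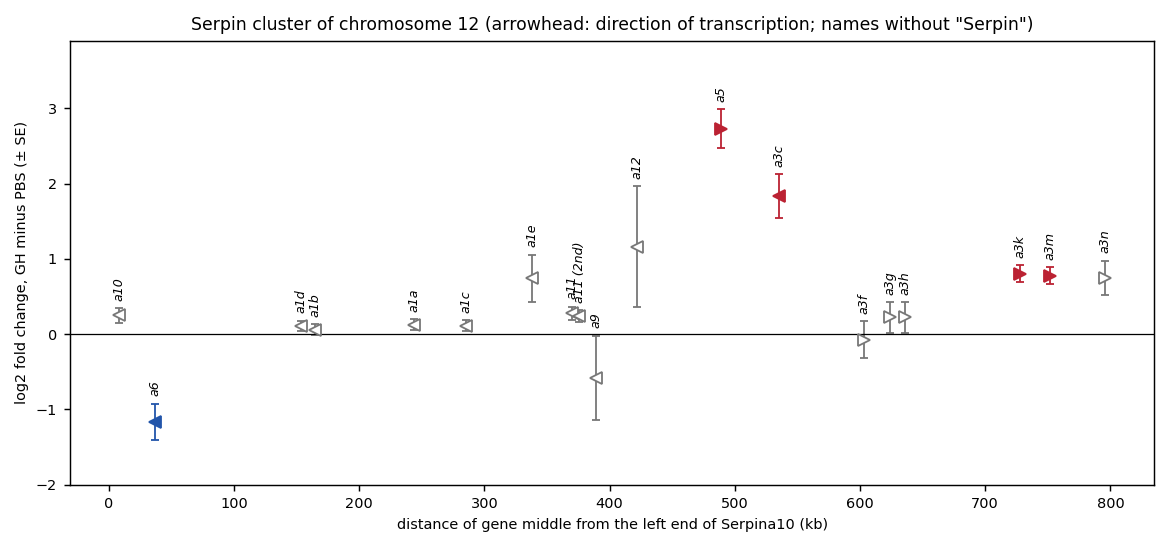
Log2 fold change with its SE of the tested serpins by distance, in kb, from the left end of Serpina10 across the chromosome 12 cluster, with filled symbols for called genes and arrowheads for the direction of transcription. Serpina6 lies below 0 near the left end, and Serpina5, Serpina3c, Serpina3k and Serpina3m lie above 0 in the right part, with uncalled members between and beyond them.

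Promoters of 3 called genes with an entry in the RefSeq table (GRCm38.p6) are shown, with Serpina11 for comparison since its promoter holds the motif searched. Each runs from 250 bases before the start site to 50 after, 5′ to 3′ on the gene's strand. Capitals mark a match to TTCNNNGAA, the core that STAT5 binds, searched on both strands.
Serpina5 (chr12:104100863-104101162, plus strand): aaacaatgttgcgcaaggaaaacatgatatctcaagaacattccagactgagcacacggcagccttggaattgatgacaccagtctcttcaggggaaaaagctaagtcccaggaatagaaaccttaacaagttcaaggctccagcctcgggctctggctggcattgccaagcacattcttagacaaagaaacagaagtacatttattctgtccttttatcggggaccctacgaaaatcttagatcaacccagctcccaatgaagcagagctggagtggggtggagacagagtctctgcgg
Serpina3c (chr12:104153823-104154122, minus strand): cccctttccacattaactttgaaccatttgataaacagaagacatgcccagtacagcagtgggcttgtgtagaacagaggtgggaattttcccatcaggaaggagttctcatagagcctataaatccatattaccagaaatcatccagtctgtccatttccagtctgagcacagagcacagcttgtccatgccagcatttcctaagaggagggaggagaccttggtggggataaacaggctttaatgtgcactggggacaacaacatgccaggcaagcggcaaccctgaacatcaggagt
Serpina7 (chrX:139085187-139085486, minus strand): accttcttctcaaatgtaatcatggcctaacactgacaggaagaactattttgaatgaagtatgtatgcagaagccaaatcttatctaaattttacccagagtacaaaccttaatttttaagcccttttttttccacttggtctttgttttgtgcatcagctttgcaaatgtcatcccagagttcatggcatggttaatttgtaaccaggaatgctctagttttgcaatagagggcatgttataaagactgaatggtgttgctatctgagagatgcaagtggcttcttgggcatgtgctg
Serpina11 (chr12:103989908-103990207, minus strand): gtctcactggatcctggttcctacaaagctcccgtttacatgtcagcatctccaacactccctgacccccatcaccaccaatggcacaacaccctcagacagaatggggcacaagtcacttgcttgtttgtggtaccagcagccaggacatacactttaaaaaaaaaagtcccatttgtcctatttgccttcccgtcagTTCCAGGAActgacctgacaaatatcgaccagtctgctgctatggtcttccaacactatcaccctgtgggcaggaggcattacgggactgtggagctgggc
Counted by entry, the core was in 2726 of 32851 promoters of the table (8.30%). Some genes have more than 1 entry, so a count by gene is not like for like. Counted by gene, with a match in any entry, the core was in 5 of the 24 members with an entry: Serpina11, Serpina3f, Serpina3g, Serpina3i and Serpinb6a. Of these, Serpina3i was not tested and edgeR called none of the other 4, while DESeq2 called Serpina11 (adjusted p = 0.0492). The promoters of Serpina5, Serpina3c and Serpina7 held no match in this window. The stricter TTCCNGGAA, which lies inside that core, was in 1.15% of promoters and in Serpina11 and Serpinb6a. A C/EBP-like motif and an HNF1 motif, each searched in the same way as 1 fixed pattern, were in 0.588% and 0.00913% of promoters and in no member. The HNF1 pattern was in only 3 of the 32851 promoters. At rates this low, no match among 24 members is likely in any case, so their absence is not informative. Whether the members hold looser forms of these sites was not tested. Serpina10, Serpina3h, Serpina3k, Serpina3m, Serpina6, Serpina9, Serpinb1a and Serping1 had no entry.

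Of the proteases that serpins inhibit, 23 of 32 listed were tested, and 4 rose (17.4%) and none fell, where 2.27% of all genes tested were higher and 2.52% lower. Their median log2 fold change was 0.15, beside 0.00 over all genes. F11, coagulation factor XI, rose from 93.3 ± 9.68 to 156 ± 9.18 CPM (SD, n = 6 each; log2 fold change 0.74 ± 0.07 SE, edgeR adjusted p = 2.23e-05). Masp1 and Masp2, proteases of the lectin pathway that C1 inhibitor restrains, rose by 0.30 and 0.27 on the log2 scale (adjusted p = 0.0111 and 0.0174), and Proc, protein C, the target of Serpina5, by 0.25 (adjusted p = 0.0335). Of the 9 cofactors, clearance receptors and hormone partners tested, Lrp2, an endocytic receptor, rose by 1.62 (adjusted p = 0.0222) and Vtn, vitronectin, by 0.28 (adjusted p = 0.0473). These are 22.2% of that list, whose median was -0.01, beside the same 2.27% of all genes higher. The call on Vtn was lost in 10 of 12 fits that left out 1 library, that on Proc in 8 of 12, and that on Lrp2 without PBS 6 (adjusted p = 0.0570). With library totals as the only scaling, Masp2 (adjusted p = 0.0536), Proc (0.0891) and Vtn (0.0980) lost their calls. Without a filter on low counts, Lrp2 (0.0731) and Proc (0.0671) lost theirs, and without robust shrinkage Vtn did (0.0545).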

How the data were processed

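Raw exon counts per gene were deposited by the authors as 1 table of 38087 rows and 12 libraries, 19523104 to 23278931 counts each. Per the submitters' processing notes, the tool was STAR 2.4.0i and the build mm10. The counter, its annotation and its use of strand are not given in the sources used. Libraries were made from 250 ng of ribosome-depleted total RNA with a stranded kit and 12 PCR cycles, and read for 125 cycles from each end, per the labels' protocols. Intervals were not used, since the spread between libraries exceeds counting error.

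Genes were tested with edgeR 4.0.16 (R 4.3.3): TMM scaling, filterByExpr with a minimum count of 10, the robust quasi-likelihood F test of GH against PBS over 14235 genes, and Benjamini-Hochberg adjustment. CPM used TMM-scaled library sizes. Summed measures used exact permutation over 924 assignments. Alternatives were DESeq2 1.42.0, other scalings, no filter, a non-robust fit, a replicate block, merged copies, and leaving out libraries. On simulated counts, with changed genes drawn from those above 1 CPM in PBS, edgeR recovered 91% of genes changed by 1 and 44% changed by 0.5 on the log2 scale. Serpina5 and Serpina3c, at means of 0.416 and 0.728 CPM in PBS, lie below that level, so these rates do not cover them. Chi-square per degree of freedom between libraries of a group was at least 8.95, so no 2 libraries agreed within sampling noise.

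Every member with a mean of at least 10 counts was described: called members by lowest, median and highest value, the plasma serpins by name, others by ranges, and called partners by name. The values of 1 member are not reported here. Members and lists were chosen with earlier results of these data known. Positions are from GENCODE M21 (GRCm38) and promoters from RefSeq (GRCm38.p6).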

Additional observations from a re-analysis of the deposited data

Results flagged for a closer look

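Within each group of 6, a library was compared with the others by its gap to the nearest value over the group's range, against a critical value of 0.625. Of 68 groups, 10 passed it, where chance gives about 1 in 20. GH 6 gave 6 of the 10. It was high in Serpina3n (1230 CPM, next 682), Serping1 (949 CPM, next 763), Serpina6 (126 CPM, next 56.8) and Serpina10 (245 CPM, next 182). It was low in Serpine2 (11.4 CPM, next 39.4) and Serpina11 (66.8 CPM, next 82.0). The same library had the highest Saa1, Saa2, Lcn2, Hp, A2m and Orm1 and the lowest Apcs of the GH group, and it had the lowest summed hepatocyte markers, at 79962 CPM; their part in these values was not tested. The sums of neutrophil markers and of T and NK cell markers were 1.45 and 1.41 CPM in it. Over the GH group these sums ran from 0.314 to 1.90 and from 0.472 to 1.41 CPM. In PBS they ran from 0.676 to 2.44 and from 0.610 to 2.04 CPM. All 5 markers of each list averaged under 1 CPM, too low to inform on these cells.

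The other 4 were Serpina10 in PBS 6 (134 CPM, next 152), Serpina3f in PBS 4 (5.42 CPM, next 3.07), Serpina1a in PBS 5 (2045 CPM, next 1763) and the difference of Serpina3m and Serpina3k in GH 1 (568 CPM, next 470).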

How the results depend on the processing

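Serpina5, Serpina3k, Serpina3m, Serpina3c and Serpina7 kept their call in all 12 fits without 1 library. The serpin count of 7 ranged from 5 (without GH 1) to 10 (without GH 6) in those fits and was 11 with DESeq2, which added Serpina3n, Serpind1, Serpine2 and Serpina11; it was 10 without both GH 6 and PBS 5, and 9 without robust shrinkage, which added Serpind1 and Serpine2. Over all genes, 682 calls became 1072 with DESeq2, 391 with the replicate block, and 434 (without GH 2) to 854 (without PBS 5) without 1 library. Library totals alone gave 211 higher and 658 lower, against 323 and 359, with a median shift of -0.06 on the log2 scale. The 6 partner calls became 3 with library totals and 3 with the replicate block, and ranged from 3 (without PBS 6) to 7 (without PBS 5). The summed share differed by 2.23 to 2.69 points without 1 library (exact permutation p 0.00216 to 0.00433). With the replicate block its exact sign-flip p was 0.0312. Same-numbered libraries had correlations of -0.175 to 0.159, over 0.1 in 2 of 6 pairs, and 1 of 6 correlated best with its own number. So few pairs cannot show whether same-numbered animals share a cage, day or batch, and the labels state no pairing. Under the block Serping1 (adjusted p = 0.108), Masp2 (0.0575), Proc (0.0841) and Vtn (0.111) lost their calls. Directions near 0 reversed: Serpinb8 gave -0.055 with library totals and -0.00066 without a filter, Serpinb9 -0.041 with library totals and -0.048 without both GH 6 and PBS 5, and Serpinh1 0.046 without both. Without 1 library, Serpinb8 ranged from -0.095 to 0.084, Serpinb6b from -0.20 to 0.11, Serpinb9 from -0.093 to 0.104, Serpina3f from -0.21 to 0.18 and Serpinh1 from -0.132 to 0.049. The difference of Serpina3m and Serpina3k, a measure added after seeing the data, ranged from -89.7 (without PBS 5, exact permutation p = 0.0216) to -44.2 CPM without 1 library, and passed with library totals (p = 0.0455). The causes of these shifts were not tested. Counts of 5 to 73 limit Serpina5.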
